A study of Mus musculus with 43 samples.

Results

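The 10 genes described here code for the AP-1 and EGR immediate early transcription factors: the Fos family (Fos, Fosb, Fosl1 and Fosl2), the Jun family (Jun, Junb and Jund) and the early growth response genes Egr1, Egr2 and Egr3. They were chosen by symbol and make up 10 of the 26264 gene symbols in each of 6 mouse RNA-seq count tables. All 10 are followed through every culture or tissue in which RUNX1 or RUNX2 was perturbed.

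AP-1 is a dimer of basic leucine zipper proteins in which a Fos protein pairs with a Jun protein, or 2 Jun proteins pair with each other, on a short palindromic DNA element. EGR proteins bind GC-rich elements through zinc fingers and are held back by the NAB corepressors. Most of these genes are transcribed within minutes of a growth factor, serum or stress signal, largely through serum response factor with its ternary complex partners and through CREB, and their mRNAs decay quickly. In fat, EGR2 (also called KROX20) is known as an early promoter of adipogenesis in cultured preadipocytes, and FRA2, the product of Fosl2, has been linked in mice to leptin expression.

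The study asked what RUNX1 and RUNX2, Runt-domain transcription factors best known from blood and bone, do in brown and beige adipocytes. Brown adipocyte cultures with extra or altered RUNX were cells overexpressing Runx2, cells overexpressing Runx1 and their wild-type control labelled OEV, taken here as the vector control (n = 3 libraries each), and cells labelled delete Runx2 IDR with cells carrying full-length Runx2 (n = 2 each). IDR usually stands for an intrinsically disordered region, which the labels do not spell out. Other cultures were labelled as Runx1 and Runx2 double knockout, Runx1 knockout, Runx2 knockout and wild-type knockout control (n = 3 each). All cultures came from 1 brown fat cell line (BAT) that was taken through brown adipocyte differentiation. Inguinal white adipose tissue (iWAT) came from Adipoq-cre Runx1 knockout and Runx1 flox mice and from Adipoq-cre Runx2 knockout and Runx2 flox mice (n = 3 each). Adipoq-cre acts in mature adipocytes, so other cells of the tissue keep the gene. A last pair of iWAT groups, Runx1 knockout and wild type (n = 3 each), is labelled HFD with no further word on the diet, the age or the Cre line. Whether libraries of a group came from separate cultures or animals is not stated, so p-values measure the spread between these libraries, which may be technical.

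The 43 libraries held 28092201 to 52171378 counts. Levels are CPM, counts divided by the TMM-scaled library size. A gene was called where edgeR's quasi-likelihood test gave a Benjamini-Hochberg adjusted p under 0.05 over all genes tested in its table. Runx2 stood at 281 to 332 CPM in Runx2-overexpressing cells and 7.74 to 9.3 CPM in vector cells, and Runx1 at 66.9 to 85.9 CPM in Runx1-overexpressing cells and 4.26 to 6.7 CPM in vector cells. The other Runx mRNA was above vector as well. Runx1 was at 28.9 to 32.6 CPM in Runx2-overexpressing cells, and Runx2 at 15.3 to 18 CPM in Runx1-overexpressing cells. In the knockout cultures the targeted mRNA overlapped the control: Runx1 was at 4.76 to 6.74 CPM in the cultures labelled Runx1 knockout and 2.8 to 8.01 CPM in control, and Runx2 at 6.83 to 8.68 CPM in those labelled Runx2 knockout and 6.82 to 9.18 CPM in control. In those labelled double knockout both overlapped the control too, with Runx1 at 3.32 to 6.39 CPM and Runx2 at 6.07 to 8.84 CPM. In iWAT, Runx1 was at 20.7 to 21.4 CPM in Runx1 knockout and 25.3 to 42.8 CPM in Runx1 flox tissue, whereas the targeted gene overlapped its control in the other 2 tissue comparisons. The counts do not show whether a deleted exon was lost. The 6 adipocyte markers (Adipoq, Plin1, Fabp4, Pparg, Cidec and Lipe) were detected in all 43 libraries. Libraries with transcripts of cardiac or skeletal muscle are named beside the results they touch. Since these are bulk samples, fewer cells of a type and less RNA per cell cannot be told apart.

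RefSeq promoter entries (GRCm38.p6, the 250 bases before the transcription start) matched 7 of the 10 genes. Those of Fos, Fosb and Egr2 (entry 3 of 5) are printed because these 3 genes showed the largest changes among genes with an entry. Capitals mark the sequence matches found.

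Fos, chr12:85473640-85473889, plus strand: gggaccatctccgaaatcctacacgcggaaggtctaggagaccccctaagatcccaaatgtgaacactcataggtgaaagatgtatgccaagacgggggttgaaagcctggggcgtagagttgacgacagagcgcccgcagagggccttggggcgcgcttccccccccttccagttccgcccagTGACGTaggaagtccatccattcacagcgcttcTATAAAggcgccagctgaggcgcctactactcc
Fosb, chr7:19310046-19310295, minus strand: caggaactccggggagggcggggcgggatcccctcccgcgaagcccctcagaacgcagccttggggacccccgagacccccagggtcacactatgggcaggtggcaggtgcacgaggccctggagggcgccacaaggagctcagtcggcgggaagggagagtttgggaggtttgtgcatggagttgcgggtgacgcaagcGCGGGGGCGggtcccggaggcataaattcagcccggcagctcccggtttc
Egr2, chr10:67537619-67537868, plus strand: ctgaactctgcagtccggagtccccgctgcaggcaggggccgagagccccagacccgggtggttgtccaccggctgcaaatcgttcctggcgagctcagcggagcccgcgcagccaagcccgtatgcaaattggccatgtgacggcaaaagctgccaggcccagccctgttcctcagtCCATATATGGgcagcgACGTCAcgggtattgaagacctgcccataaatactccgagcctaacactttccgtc

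In the Fos promoter the capitals mark the CRE core TGACGT (66 to 61 bases before the start) and the TATA box TATAAA (33 to 28 bases before it). In Egr2 they mark a CArG box, the core of the serum response element (72 to 63 bases before the start), and a CRE core on the other strand, 56 to 51 bases before it. In Fosb they mark 1 EGR site (GCGTGGGCG or GCGGGGGCG), 50 to 42 bases before the start, a motif that the Fosl2 entry held as well. Both strands of 32817 promoters of the same length were searched. A CArG box was found in 1.47% of them, TGACGT in 6.46%, TATAAA in 12.4% and an EGR site in 3.06%. Among the 7 members searched, which do not include Egr1, Egr2 was the only one with a CArG box. Fos and Egr2 held a CRE core. None of the 7 held the AP-1 site TGACTCA or TGAGTCA, which 4.46% of all promoters held. A RUNX core (TGTGGT or TGCGGT), present in 18.6% of promoters, was found in 1 entry of Egr2. These matches describe letters in a short window.

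In cells overexpressing Runx2, 9 of the 10 genes rose and none fell, against 31.3% of 14661 tested genes called higher and 29.6% called lower. The median log2 change of the 10 genes was 3.55, and that of all tested genes 0.026. Fosb, Egr3, Egr2 and Fos changed most, and Jund was the exception. For the 9 called genes every RUNX2 library lay above every vector library, a separation that 35.9% of all tested genes showed in that direction and 33.6% in the other.

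Fos, the founding AP-1 gene, was at 365, 343 and 363 CPM in the 3 RUNX2 libraries and 10.1, 10.3 and 11.2 CPM in the vector libraries. Fosb, its close relative whose mRNA is usually scarce in resting cells, was at 192, 171 and 178 CPM with RUNX2 and 0.923, 1.54 and 1.6 CPM with vector. The groups stood far apart for both, with log2 changes of 5.08 (SE 0.11) and 7.04 (SE 0.18) and edgeR adjusted p of 2.7e-10 and 3.0e-10.

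The 2 Fos-like genes moved less. Fosl1, which codes for FRA1, was at 6.1, 5.99 and 6.73 CPM with RUNX2 and 1.58, 1.85 and 2.95 CPM with vector, a log2 change of 1.55 (SE 0.26) with an edgeR adjusted p of 2.8e-04. Fosl2 had 234, 261 and 251 CPM with RUNX2, against 134, 148 and 132 CPM with vector. Its log2 change was 0.85 (SE 0.082), the smallest among the 9 called genes (edgeR adjusted p = 3.7e-06), and its groups did not overlap.

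Within the Jun family the 3 genes differed. Junb was at 451, 386 and 383 CPM with RUNX2 and 47.8, 51.8 and 42.8 CPM with vector (log2 3.10, SE 0.18, edgeR adjusted p = 8.1e-08). Jun, the main partner of Fos, was at 455, 408 and 427 CPM with RUNX2 and 118, 154 and 121 CPM with vector (log2 1.72, SE 0.12, edgeR adjusted p = 2.8e-07). Both rose, with no overlap between the groups. Jund, the constitutive Jun gene, was at 166, 131 and 129 CPM with RUNX2 and 150.1, 204 and 153 CPM with vector. These groups overlapped, and the log2 value of -0.25 (SE 0.19) did not pass the test (edgeR adjusted p = 0.27).

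All 3 EGR genes rose. Egr1 reached 1823, 1914 and 1899 CPM with RUNX2, the highest CPM of any member in any of the 43 libraries, against 119, 116 and 115 CPM with vector. Egr2 was at 342, 298 and 311 CPM with RUNX2 and 7.05, 7.92 and 9.18 CPM with vector. Egr3 was at 159.7, 154 and 162 CPM with RUNX2 and 2.5, 1.88 and 4.63 CPM with vector. Their log2 changes were 4.01 (SE 0.10), 5.29 (SE 0.14) and 5.69 (SE 0.26) (edgeR adjusted p = 2.7e-10, 3.5e-10 and 1.1e-08), and no RUNX2 library came near a vector library.

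**Figure D1:**
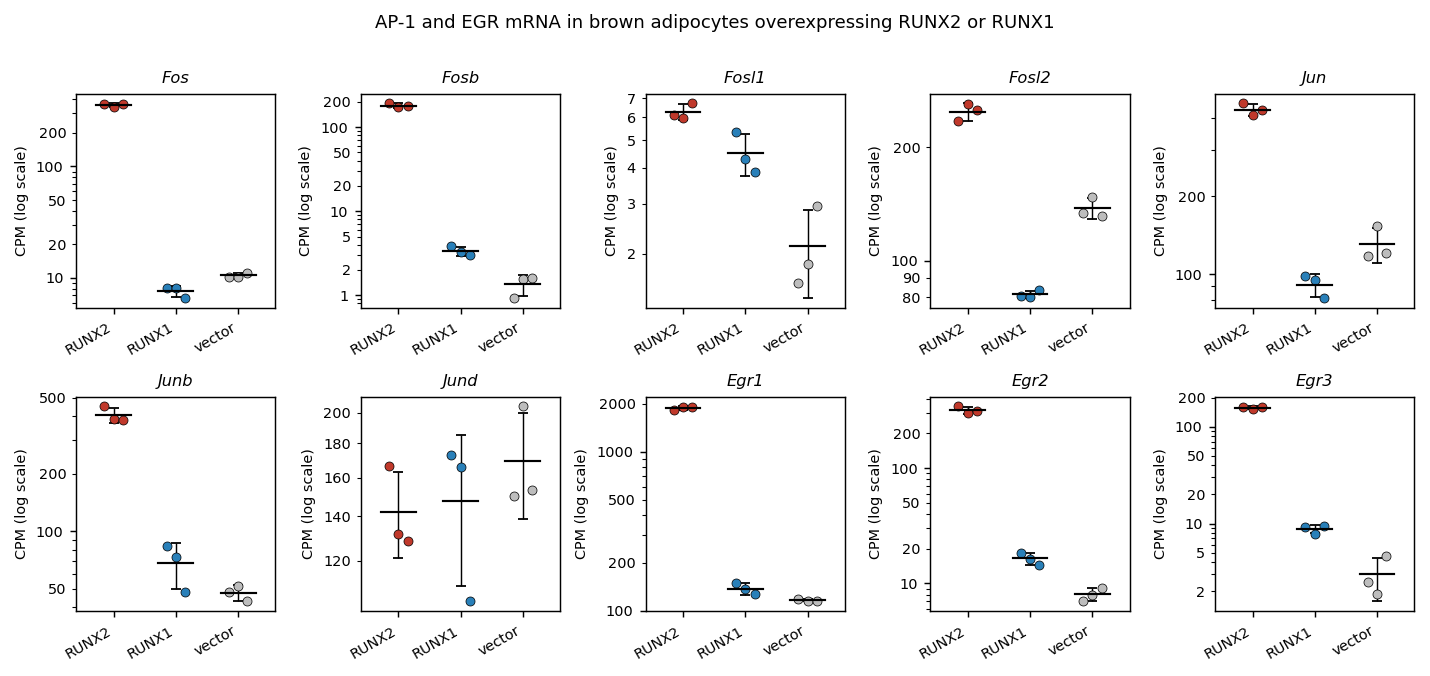
CPM on a log scale for each of the 10 genes in cells overexpressing RUNX2, cells overexpressing RUNX1 and vector cells. Points are libraries, the bar is the mean and the whiskers are 1 SD (n = 3 each). The RUNX2 libraries lie above both other groups for all genes except Jund.

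Divided by exon length (exon union of the GENCODE M21 gene models), the order of the genes differed between the groups. Egr1 stood first in RUNX2 cells with 418.9 ± 10.9 CPM per kilobase (SD, n = 3), and Jund sixth with 85.2 ± 12.5 CPM per kilobase. In vector cells Jund stood first with 101.5 ± 18.3 CPM per kilobase, Jun followed with 41.0 ± 6.32 CPM per kilobase, then Egr1 with 26.1 ± 0.482 CPM per kilobase and Fosb was last with 0.217 ± 0.060 CPM per kilobase. Fos stood at 151.9 ± 5.08 CPM per kilobase in RUNX2 cells and 4.47 ± 0.234 CPM per kilobase in vector cells, and Jun at 134.9 ± 7.33 CPM per kilobase in RUNX2 cells.

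Some members share exon sequence with a gene on the opposite strand in the GENCODE M21 models: Fosl1 with Ccdc85b, Junb with Prdx2, Jun with Junos and Jund with Gm11175. The sources used here do not say whether counting used strand, so reads of such a pair cannot be told apart. Prdx2, a peroxiredoxin gene, moved against Junb with RUNX2 (124 CPM with RUNX2 and 174 CPM with vector, log2 -0.49, edgeR adjusted p = 0.0062). Ccdc85b did not pass the test there (43.5 CPM with RUNX2 and 37.5 CPM with vector, log2 0.21, edgeR adjusted p = 0.34). Junos and Gm11175 were not among the gene symbols counted, so their levels are not known.

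Overexpression of Runx1 gave a mixed response of the same 10 genes. Egr3, Fosb, Fosl1, Egr2, Junb and Egr1 rose, Fosl2, Jun and Fos fell, and Jund did not pass the test. Across all 14661 tested genes 28.2% were called higher and 25.8% lower, so a change as such was common in these cells. The median log2 change of the 10 genes was 0.38, against 0.058 for all tested genes. Both overexpression comparisons share the 3 vector libraries.

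Fos was at 8.12, 8.15 and 6.58 CPM with RUNX1 and 10.1, 10.3 and 11.2 CPM with vector (log2 -0.47, SE 0.10, edgeR adjusted p = 0.0026). Fosl2 was at 80.5, 80.1 and 83.6 CPM with RUNX1 and 134, 148 and 132 CPM with vector (log2 -0.76, SE 0.082, edgeR adjusted p = 1.7e-05). Jun was at 98.1, 94.8 and 80.9 CPM with RUNX1 and 118, 154 and 121 CPM with vector (log2 -0.52, SE 0.12, edgeR adjusted p = 0.0031). In all 3 genes every RUNX1 library was below every vector library, as was the case for 28.9% of all tested genes, and the same 3 genes were higher with RUNX2 than with vector.

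Fosb was at 3.81, 3.27 and 3.02 CPM with RUNX1 and 0.923, 1.54 and 1.6 CPM with vector (log2 1.30, SE 0.18, edgeR adjusted p = 9.9e-05). Egr3 was at 9.13, 7.77 and 9.33 CPM with RUNX1 and 2.5, 1.88 and 4.63 CPM with vector (log2 1.51, SE 0.24, edgeR adjusted p = 2.8e-04). Egr2 was at 18.4, 16.4 and 14.5 CPM with RUNX1 and 7.05, 7.92 and 9.18 CPM with vector (log2 1.03, SE 0.12, edgeR adjusted p = 3.7e-05). These rises, and that of Fosl1 to 5.35, 4.3 and 3.88 CPM with RUNX1 against 1.58, 1.85 and 2.95 CPM with vector (log2 1.08, SE 0.26, edgeR adjusted p = 0.0042), left no overlap between the groups, which 30.7% of all tested genes showed in that direction. For Fosl1, the opposite-strand gene Ccdc85b was higher as well (59.9 CPM with RUNX1 and 37.5 CPM with vector, log2 0.67, edgeR adjusted p = 0.0089).

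The other 2 rises were smaller. Junb was at 83.7, 73 and 47.7 CPM with RUNX1 and 47.8, 51.8 and 42.8 CPM with vector, groups that overlapped (log2 0.52, SE 0.17, edgeR adjusted p = 0.023), and its opposite-strand gene Prdx2 was higher too (226 CPM with RUNX1 and 174 CPM with vector, log2 0.38). Egr1 was at 150.2, 137 and 127 CPM with RUNX1 and 119, 116 and 115 CPM with vector (log2 0.24, SE 0.085, edgeR adjusted p = 0.032). The Junb call was lost in 4 of 15 alternative analyses and the Egr1 call in 7 of 15, with edgeR or DESeq2 adjusted p from 0.00011 to 0.14 and from 0.0064 to 0.19. Among those were the fits without vector replicate 1 or 3 and without RUNX1 replicate 1 or 2 for both genes, and without vector replicate 2 for Egr1. Jund was at 173, 166 and 104 CPM with RUNX1 and 150.1, 204 and 153 CPM with vector and overlapped (edgeR adjusted p = 0.40).

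Set directly against RUNX1 cells, RUNX2 cells had 8 of the 10 genes higher and none lower, where 18.9% of tested genes were called higher and 21% lower. Both groups held more of both Runx mRNAs than vector cells, so this comparison does not set 1 factor alone against the other. In all, 9 members did not overlap between the groups, all higher with RUNX2, beside 25.6% of tested genes so separated upward and 25.7% downward. Fosb, at log2 5.74 (SE 0.16), and Fos, at log2 5.55 (SE 0.11), differed most (edgeR adjusted p = 2.4e-09 and 2.8e-10). Egr2, Egr3 and Egr1 followed at log2 4.27, 4.18 and 3.77, then Junb at 2.58, Jun at 2.24 and Fosl2 at 1.61. Fosl1 was at 5.99 to 6.73 CPM with RUNX2 and 3.88 to 5.35 CPM with RUNX1, which did not pass the test although the groups did not overlap (log2 0.48, SE 0.25, edgeR adjusted p = 0.15). Jund had a log2 difference of -0.055 (SE 0.19) (edgeR adjusted p = 0.84).

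The counts for genes upstream and downstream of these factors are to be read beside the shares of all tested genes, 31.3% higher and 29.6% lower with RUNX2 and 28.2% higher and 25.8% lower with RUNX1. Among 25 other immediate early genes 22 rose and 1 fell with RUNX2, with a median log2 change of 2.24 against 0.026 for all tested genes. Nr4a1, an orphan nuclear receptor gene, was at 607 CPM with RUNX2 and 11.6 CPM with vector (log2 5.70), and Zfp36, whose product destabilises AU-rich mRNAs, at 239 CPM with RUNX2 and 19.9 CPM with vector (log2 3.59). Maff, a small Maf gene, fell (log2 -0.72). With RUNX1, 11 of the 25 rose and 6 fell (median log2 0.33): Socs3, a feedback inhibitor of cytokine signalling, rose (log2 1.61), while Maff, the MAP kinase phosphatase gene Dusp1 and the antiproliferative gene Btg2 fell (log2 -2.40, -1.43 and -1.03).

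On the input side, 8 of 10 genes of the serum response factor axis rose with RUNX2 and 1 fell. Srf itself was at 215 CPM with RUNX2 and 39.8 CPM with vector (log2 2.44), and the smooth muscle target Tagln at 273 CPM with RUNX2 and 10.7 CPM with vector (log2 4.66), while the ternary complex factor gene Elk4 fell (log2 -1.06). With RUNX1, 7 of the 10 rose and 1 fell, among them Tagln at log2 4.42. Some lists lay near those shares of all genes. Of 11 MAP kinase genes, 3 rose and 4 fell with RUNX2 and 2 rose and 3 fell with RUNX1. Of the 8 genes of the cAMP and CREB branch, 2 rose and 2 fell with each factor, the phosphodiesterase gene Pde4d being lower in both (log2 -1.97 with RUNX2 and -2.99 with RUNX1).

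Growth factor ligands had 5 of 7 tested genes higher and 2 lower with RUNX2, and 4 higher and 2 lower with RUNX1. Fgf7 was at 136 CPM with RUNX2 and 7.92 CPM with vector (log2 4.09), whereas the angiogenic factor gene Vegfa was at 193 CPM with RUNX2 and 805 CPM with vector (log2 -2.06). Receptors had 6 of 9 higher and 2 lower with RUNX2, and 4 higher and 2 lower with RUNX1. Pdgfrb, the PDGF receptor gene of mesenchymal cells, was at log2 3.18 with RUNX2 and 2.44 with RUNX1. Feedback inhibitors of ERK signalling had 7 of 11 higher and 2 lower with RUNX2, and 3 higher and 2 lower with RUNX1. Errfi1, an inhibitor of the EGF receptor, was at 702 CPM with RUNX2 and 73.3 CPM with vector (log2 3.26).

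Other basic leucine zipper partners of AP-1 had 7 of 11 higher and 2 lower with RUNX2, and 3 higher and 4 lower with RUNX1. Maf was at 98.2 CPM with RUNX2 and 1.38 CPM with vector (log2 6.11), and Atf2 fell (log2 -0.72). Among 3 tested EGR corepressors or competitors, the corepressor gene Nab2 rose with RUNX2 (log2 1.47) and with RUNX1 (log2 1.10), and Nab1 fell with RUNX2 (log2 -0.39). Textbook AP-1 targets had 12 of 13 higher and 1 lower with each factor, while Fos and Jun were lower with RUNX1. Tnc, an extracellular matrix gene, was at 634 CPM with RUNX2 (log2 5.70), 908 CPM with RUNX1 (log2 6.22) and 12.1 CPM with vector, and the haem oxygenase gene Hmox1 fell with both. Textbook EGR targets had 5 of 8 higher and 2 lower with each factor, and heat shock and handling genes had 3 of 8 higher and 2 lower with RUNX2 and 3 higher and 0 lower with RUNX1. Some genes stand on more than 1 of these lists, and Pdgfrb is also among the stroma markers below.

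Levels of cell type markers differed between these cultures as well. The summed level of 7 preadipocyte and stroma markers was 609 to 656 CPM with RUNX2, 329.8 to 363 CPM with RUNX1 and 80.7 to 119.9 CPM with vector, and 4 of 6 tested markers were higher with each factor. The 6 adipocyte markers summed to 3761 to 4487 CPM with RUNX2, 6552 to 8056 CPM with RUNX1 and 7491 to 7788 CPM with vector. The 6 brown adipocyte markers summed to 25.4 to 35.2 CPM with RUNX2, 24.7 to 50.6 CPM with RUNX1 and 212 to 325 CPM with vector. Macrophage markers stayed low, with sums of 15.7 to 18.4 CPM with RUNX2, 8.99 to 15 CPM with RUNX1 and 4.98 to 7.85 CPM with vector. The part of these differences in the changes of the AP-1 and EGR genes was not tested. Cardiac muscle markers summed to 1510 CPM in RUNX1 replicate 3, and to 98.3 and 396 CPM in vector replicates 1 and 2. Without these 3 libraries, which leaves 1 vector library, the counts of called members were the same with both factors (9 higher and 0 lower with RUNX2, 6 higher and 3 lower with RUNX1). The sizes of some RUNX1 changes moved, to log2 0.87 for Egr3, 0.71 for Fosl1, -0.32 for Jun and 0.87 for Junb.

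In the cultures labelled double knockout, Jun and Egr2 were higher and Fosl2 and Fosb lower than in control, so 2 of 10 genes were called in each direction, beside 8.27% of 13551 tested genes called higher and 7.01% called lower. In those labelled Runx1 knockout or Runx2 knockout, edgeR called none of the 10 genes, beside 0.406% of tested genes called higher and 0.0295% lower in Runx1 knockout and 0.177% higher and 0.00738% lower in Runx2 knockout. In each, 2 members, Egr1 and Egr2, had an unadjusted p under 0.05, as had 942 of 13551 genes in Runx1 knockout and 872 in Runx2 knockout. DESeq2 called these 2 members higher in both single knockouts, among 178 genes higher in Runx1 knockout and 146 in Runx2 knockout. All 3 knockout comparisons share the 3 control libraries. Shares of all tested genes without overlap between groups are not given for these cultures. Separations named below therefore describe the libraries and are not a result about the members.

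Fosl2 was at 62.2, 90.4 and 90.7 CPM in double knockout, 128, 143 and 125 CPM in Runx1 knockout, 125, 120.1 and 140.2 CPM in Runx2 knockout and 134, 172 and 151 CPM in control. Double knockout libraries lay below all others (log2 -0.91, SE 0.16 against control, edgeR adjusted p = 0.0025). Against the Runx1 and Runx2 knockout cultures the log2 differences were -0.70 (SE 0.15) and -0.66 (SE 0.15) (edgeR adjusted p = 0.022 and 0.029). In each of these 2 comparisons 1 member was called higher, Jun, and 2 lower, Fosl2 and Egr1. Of all tested genes 3.42% were called higher and 3.03% lower against Runx1 knockout, and 3.06% higher and 2.46% lower against Runx2 knockout. The Fosl2 calls against the single knockouts were lost without any 1 replicate of the single knockout concerned.

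Jun showed the opposite direction. It was at 88.4, 102 and 95.2 CPM in double knockout, 63, 65.1 and 57.2 CPM in Runx1 knockout, 66.4, 61 and 59.4 CPM in Runx2 knockout and 55.6, 66.8 and 68.6 CPM in control. Every double knockout library was above every other library of the table (log2 0.58, SE 0.12 against control, edgeR adjusted p = 0.0059, and log2 0.62 and 0.61 against the Runx1 and Runx2 knockout cultures, both called). Fosb was low throughout, at 0.908, 1.59 and 0.892 CPM in double knockout and 2.48, 2.14 and 2.59 CPM in control (log2 -1.08, SE 0.29, edgeR adjusted p = 0.027), and its call was lost without double knockout replicate 3 or any 1 of the control libraries.

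Egr2 was at 6.39, 7.09 and 6.89 CPM in double knockout, 6.85, 6.07 and 7.04 CPM in Runx1 knockout, 8.38, 6.54 and 8.13 CPM in Runx2 knockout and 2.48, 3.79 and 5.21 CPM in control. All 9 knockout libraries were above the 3 control libraries, by log2 0.82 (SE 0.23), 0.79 (SE 0.23) and 1.00 (SE 0.23), with edgeR adjusted p of 0.03, 0.27 and 0.13. The Egr2 difference was therefore of like size in the 3 comparisons, and edgeR called it in the double knockout only, where the call was lost without control replicate 1 or 2 or double knockout replicate 2.

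Egr1 behaved otherwise. It was at 29.4, 26.8 and 31.8 CPM in double knockout, 57, 63.1 and 54.7 CPM in Runx1 knockout, 58.3, 50.4 and 61.3 CPM in Runx2 knockout and 32.5, 43.1 and 43.5 CPM in control. Single knockout libraries lay above control (log2 0.55, SE 0.14 and 0.51, SE 0.14, edgeR adjusted p = 0.16 and 0.23) and double knockout libraries below it (log2 -0.43, SE 0.14, edgeR adjusted p = 0.053), none of which edgeR called. Set against the single knockouts, the double knockout was lower by log2 values that passed, -0.99 (SE 0.14) against Runx1 knockout and -0.95 (SE 0.14) against Runx2 knockout (edgeR adjusted p = 0.0029 and 0.0031). Compared with what adding up both single knockout effects would give, Egr1 was off by log2 -1.50 (SE 0.20) in the double knockout (edgeR adjusted p = 0.018). The call was lost in 9 of 16 alternative analyses, among them the replicate block and those without any 1 Runx1 knockout library, control replicate 2 or 3, Runx2 knockout replicate 1 or 3 or double knockout replicate 2 (edgeR adjusted p up to 0.090). It was the only member so called, beside 0.0369% of tested genes called lower and 0.00738% higher.

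**Figure D2:**
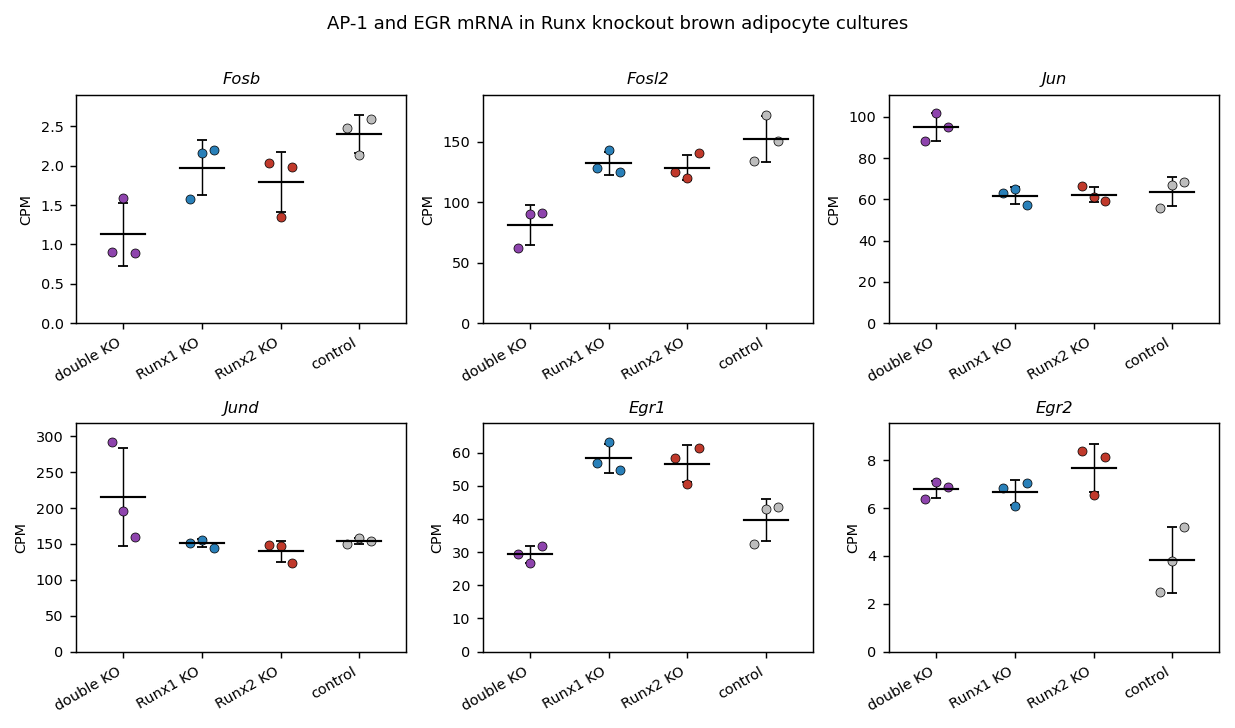
CPM of 6 of the genes in cultures labelled double knockout, Runx1 knockout, Runx2 knockout and control. Points are libraries, bars are means and whiskers are 1 SD (n = 3 each). Fosl2 and Egr1 are lowest and Jun is highest in the double knockout, and Egr2 is above control in all 3 knockout groups.

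Jund was at 291, 195 and 160.2 CPM in double knockout and 150.3, 159 and 154 CPM in control, a difference that did not pass the test (log2 0.48, SE 0.18, edgeR adjusted p = 0.092). The highest of these values came from double knockout replicate 1, which stood apart in its adipocyte markers (15867 CPM in sum, against 6882 to 8083 CPM in the other 11 libraries of the table). Without that library 3 members were called higher and 3 lower in the double knockout, and both Egr1 and Egr2 were called higher in each single knockout. The shares of all genes called in that fit are not given here. With the double knockout and control libraries fitted alone, 0 members were called higher and 0 lower. The other 4 genes were not called in the double knockout. Fos was at 4.38 to 4.96 CPM in double knockout, against 3.02 to 4.3 CPM in control, Fosl1 at 0.977 to 3.18 CPM in double knockout against 1.33 to 1.81 CPM in control, Junb at 37.4 to 44.3 CPM in double knockout against 29.95 to 38 CPM in control and Egr3 at 0.39 to 0.628 CPM in double knockout against 0.431 to 0.723 CPM in control.

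Among pathway genes in the double knockout, textbook AP-1 targets had 6 of 10 tested higher and 1 lower, with Ccl2, a monocyte chemokine gene, at 4.11 CPM in double knockout and 0.25 CPM in control (log2 4.04) and Hmox1 lower (log2 -1.01). Other immediate early genes had 1 of 22 higher, the stress factor gene Atf3 (log2 0.89), and 2 lower, Maff (log2 -1.37) and Trib1 (log2 -0.43). Leucine zipper partners had 2 of 11 higher and 4 lower, among them the AP-1 repressor gene Jdp2 (log2 -0.64). The serum response factor axis had 3 of 10 higher and 0 lower, EGR targets 2 of 8 higher and 0 lower, ERK feedback inhibitors 1 of 11 higher and 1 lower, ligands 1 of 7 higher, MAP kinases 1 of 11 lower, the cAMP branch 1 of 8 lower and heat shock genes 1 of 8 higher. Receptors (9 tested) and EGR corepressors (3 tested) had none called in either direction. Stroma markers had 3 of 5 tested genes higher, with summed levels of 67.4 to 108 CPM in double knockout and 66.2 to 76.9 CPM in control, and their part in these changes was not tested. In the single knockouts 1 pathway gene was called, Ccn1, a matricellular immediate early gene, higher in Runx1 knockout (log2 1.00).

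Cells carrying Runx2 without its IDR had less Egr1, Egr2 and Fosl2 than cells with full-length Runx2. No member was higher, and 3 of 10 were called lower, beside 1.51% of 13110 tested genes called higher and 2.4% called lower. The 2 libraries of a group did not overlap with the other group for 6 members, all lower with the deletion, a pattern that 22.3% of tested genes showed in that direction and 22.2% in the other. The median log2 change of the 10 genes was -0.26.

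Egr1 was at 30.2 and 36.3 CPM in IDR-deleted cells and 55 and 64.1 CPM in full-length cells (log2 -0.84, SE 0.10, edgeR adjusted p = 5.7e-07). Egr2 was at 2.62 and 3.07 CPM in IDR-deleted cells and 4.93 and 5.31 CPM in full-length cells (log2 -0.85, SE 0.24, edgeR adjusted p = 0.03). Fosl2 was at 51.9 and 65.4 CPM in IDR-deleted cells and 78.5 and 74.5 CPM in full-length cells (log2 -0.38, SE 0.095, edgeR adjusted p = 0.012). Each gene was lower in both IDR-deleted libraries. The Egr2 call was lost in 4 of 8 alternative analyses, among them those without replicate 1 or 2 of full-length cells or replicate 1 of IDR-deleted cells. The Fosl2 call was lost in 2 of 8, without replicate 1 of either group, where Egr1 alone was called. In the authors' deposited table Egr1 is listed at log2 -0.84 (adjusted p = 1.4e-08) and Fosl2 at log2 -0.38 (adjusted p = 0.036).

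Fos was at 2.19 and 2.47 CPM in IDR-deleted cells and 4.01 and 4.11 CPM in full-length cells, a separation that did not pass the test (log2 -0.80, SE 0.26, edgeR adjusted p = 0.078). Jun was at 120.4 and 115 CPM in IDR-deleted cells and 128 and 132 CPM in full-length cells (log2 -0.14), and Junb at 24.7 and 23.1 CPM in IDR-deleted cells and 26.7 and 25.8 CPM in full-length cells (log2 -0.13), neither called. Jund was at 115 and 112 CPM in IDR-deleted cells and 103 and 123 CPM in full-length cells and overlapped, as did Fosb, Fosl1 and Egr3. Runx2 mRNA itself was at 115 and 143 CPM in IDR-deleted cells and 293 and 294 CPM in full-length cells, so dose and deletion cannot be told apart in this comparison.

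**Figure D3:**
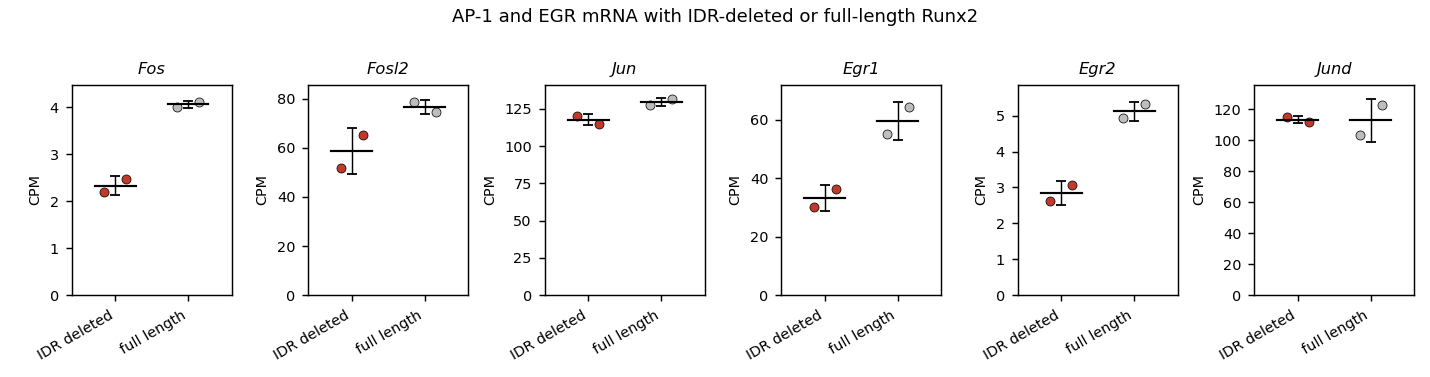
CPM of 6 of the genes in cells with IDR-deleted Runx2 and cells with full-length Runx2. Points are libraries, bars are means and whiskers are 1 SD (n = 2 each). Egr1, Egr2, Fos and Fosl2 are lower in both IDR-deleted libraries, and Jund overlaps.

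Of the pathway genes, the ERK feedback inhibitor Errfi1 was at 34.3 CPM in IDR-deleted cells and 58.9 CPM in full-length cells (log2 -0.78), and 3 of 11 such inhibitors were lower and 0 higher. Receptors had 4 of 9 lower, including Egfr (log2 -1.09), other immediate early genes 3 of 23 lower (Klf6, Zfp36 and Trib1) and leucine zipper partners 3 of 10 lower, led by Maf (log2 -1.40). AP-1 targets had 3 of 11 lower, with Tnc at 4.86 CPM in IDR-deleted cells and 24.5 CPM in full-length cells (log2 -2.33). EGR targets had 1 of 8 higher, Id3, and none lower. No gene was called in the serum response factor, MAP kinase, cAMP, ligand, corepressor or heat shock lists.

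The level of Runx2 mRNA was similar in full-length cells (293 and 294 CPM) and in the Runx2-overexpressing cells described above (281, 332 and 313 CPM), but the immediate early genes were not. Fos was at 4.01 and 4.11 CPM in full-length cells and 365, 343 and 363 CPM in Runx2-overexpressing cells, and Egr1 at 55 and 64.1 CPM in full-length cells and 1823, 1914 and 1899 CPM in Runx2-overexpressing cells. Fosb was at 1 and 1.11 CPM in full-length cells and 192, 171 and 178 CPM in Runx2-overexpressing cells. Stroma markers summed to 43.2 to 44.4 CPM in full-length cells and 609 to 656 CPM in Runx2-overexpressing cells. These libraries belong to different tables, so the values are set side by side without a test, and table and construct cannot be told apart.

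In iWAT of Runx1 knockout mice a single AP-1 gene, Fosl2, was called lower than in Runx1 flox mice. It was 1 of 9 tested members and none were higher, beside 4.45% of 15896 tested genes called higher and 3.03% lower. At an unadjusted p under 0.05 there were 6 of the 9 members and 3994 of the 15896 genes, in either direction. The median log2 change of the 9 genes was -1.17. Fosl1 was near 0 and was not tested.

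Fosl2 was at 59, 55 and 83.3 CPM in knockout and 159, 318 and 136 CPM in flox tissue (log2 -1.63, SE 0.36, edgeR adjusted p = 0.048). Jun was at 50.8, 46.3 and 46.5 CPM in knockout and 65.2, 235 and 244 CPM in flox tissue (log2 -1.92, SE 0.54, edgeR adjusted p = 0.11). Jund was at 279.7, 286 and 293 CPM in knockout and 352, 575 and 395 CPM in flox tissue (log2 -0.62, SE 0.19, edgeR adjusted p = 0.066). In these 3 genes every knockout library was below every flox library, which 14.1% of tested genes showed, while 17.3% were separated the other way. For these genes the flox libraries spread more widely than the knockout libraries, most of all for Jun, whose flox replicate 1 was close to the knockouts.

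Fos was at 19.9, 1.98 and 4.01 CPM in knockout and 9.05, 28.5 and 38.3 CPM in flox tissue, and the groups overlapped (log2 -1.55, SE 1.12, edgeR adjusted p = 0.47). Egr1, at 41.4, 19.1 and 24.8 CPM in knockout and 36.9, 87.7 and 67.4 CPM in flox tissue, Fosb, at 5.39, 1.72 and 0.976 CPM in knockout and 3.98, 11.5 and 8.96 CPM in flox tissue, and Junb, at 70.3, 82.8 and 94.3 CPM in knockout and 76.4, 176 and 170.3 CPM in flox tissue, overlapped too and did not pass. Egr2 and Egr3 had the smallest differences (log2 -0.56 and -0.059), with Egr3 at 17.5, 16.9 and 13.9 CPM in knockout and 21, 15.4 and 13.9 CPM in flox tissue. The Fosl2 call was lost in 7 of 11 alternative analyses: without knockout replicate 2 or 3 or without flox replicate 3 no member was called. Without flox replicate 1 the members called lower were Jun, Junb and Jund, and without knockout replicate 1 Fosb. The shares of all genes called in these fits are not given here. DESeq2 called 6 members lower, among 1066 of 15896 genes.

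Stress and muscle transcripts differed between these libraries. Of the heat shock and handling genes, 4 of 8 were higher in knockout tissue, among them Hspa1a at 33.9 CPM in knockout and 3.35 CPM in flox tissue (log2 3.34), and the list summed to 1306 to 1770 CPM in knockout and 894 to 1156 CPM in flox tissue. Skeletal muscle markers summed to 216, 15261 and 7086 CPM in the knockout libraries and 15.4, 6673 and 74.2 CPM in the flox libraries. The endothelial markers summed to 558 to 796 CPM in knockout and 851 to 1128 CPM in flox tissue, and 7 macrophage markers to 1194 to 1343 CPM in knockout and 1104 to 1936 CPM in flox tissue, with 1 of 7 called lower. Their part in the lower AP-1 levels was not tested. Leaving out the 3 libraries highest in muscle transcripts left 1 knockout library. The log2 values were then -0.25 for Fos, -0.26 for Fosb and -0.33 for Egr1, smaller in size than with all libraries. Those of Fosl2, Jun, Junb, Jund and Egr2 were -1.32, -1.61, -0.81, -0.42 and -0.41.

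Other immediate early genes had 7 of 24 lower and 1 higher in Runx1 knockout iWAT, including the matricellular gene Ccn2 (log2 -1.24) and the kinase gene Sgk1 (log2 -1.16), with Ier5 higher. The ERK feedback inhibitors Errfi1, Spry4 and Dusp6 were 3 of 11 lower, and Errfi1 was at 42.5 CPM in knockout and 240.1 CPM in flox tissue (log2 -2.50). The serum response factor axis had 3 of 10 lower, receptors 1 of 9 lower, MAP kinases 1 of 11 higher, corepressors 1 of 3 higher (Nab2), and the leucine zipper partners none of 13. EGR targets had 2 of 8 higher and 2 lower, and AP-1 targets 1 of 13 higher and 1 lower, as did the cAMP branch (8 tested) and ligands (9 tested).

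In iWAT of Runx2 knockout mice no member was called by edgeR, as was no gene among 15574 (0%), with 1 member, Fosb, and 3206 genes at an unadjusted p under 0.05. DESeq2 called 567 genes higher and 472 lower, 1 member among them. Fosb was at 28.3, 18.8 and 13.1 CPM in knockout and 4.45, 10.7 and 8.24 CPM in flox tissue, with no overlap (log2 1.36, SE 0.40, edgeR adjusted p = 0.22), as 13.7% of tested genes showed in that direction and 11% in the other. Fosl2 was at 360.3, 208 and 303 CPM in knockout and 113, 159.8 and 279 CPM in flox tissue and overlapped (log2 0.66, SE 0.37). Fos, at 106, 35.3 and 39.3 CPM in knockout and 45.4, 67.5 and 104 CPM in flox tissue, and Egr1, at 574, 99.3 and 153 CPM in knockout and 229, 187 and 425 CPM in flox tissue, varied more within a group than between groups. Flox replicate 3 stood apart (B cell markers summed to 263 CPM in it and 1535 to 1547 CPM in the other flox libraries, and skeletal muscle markers to 6832 CPM). Several marker sums did not overlap between the groups: brown adipocyte markers were at 336 to 962 CPM in knockout and 67.9 to 167 CPM in flox tissue, adipocyte markers at 31819 to 40184 CPM in knockout and 12272 to 31485 CPM in flox tissue, and stroma markers at 751 to 866 CPM in knockout and 665 to 748 CPM in flox tissue. Macrophage markers were at 732 to 904 CPM in knockout and 1036 to 1546 CPM in flox tissue, and T cell markers at 227 to 273 CPM in knockout and 351 to 829 CPM in flox tissue. Their part in the Fosb values was not tested. Without flox replicate 3, Fosb, Fosl1 and Fosl2 were called higher (log2 1.41, 2.31 and 1.09) and Egr3 lower (log2 -1.17). The share of all genes called in that fit is not given here, so these calls are not a result about the members. The other members, Junb, Jund, Jun and Egr2, had log2 values of 0.081, 0.37, -0.13 and -0.18. No pathway list had a called gene.

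In the iWAT labelled HFD, none of the 9 members tested was called between Runx1 knockout and wild-type tissue, beside 0.0465% of 15058 genes called higher and 2.07% lower. Fos, Egr3 and Fosb had an unadjusted p under 0.05, as had 1280 of the 15058 genes. Fos was at 53.9, 48.9 and 27.3 CPM in knockout and 20.2, 19 and 22.9 CPM in wild type, with no overlap (log2 1.07, SE 0.26, edgeR adjusted p = 0.068), as 5.55% of tested genes showed in that direction and 6.75% in the other. Without knockout replicate 3 it was called higher. Egr3 was at 1.78, 2.63 and 1.59 CPM in knockout and 2.42, 14 and 9.1 CPM in wild type (log2 -2.09, SE 0.54, edgeR adjusted p = 0.096), and Fosb at 4.92, 4.28 and 3.42 CPM in knockout and 3.07, 16.8 and 19.1 CPM in wild type (log2 -1.62, SE 0.53, edgeR adjusted p = 0.26). Wild-type replicate 1 lay among the knockouts for Egr3 and below all of them for Fosb. Without that library both genes were called lower, in a fit whose share of all genes called is not given here. The authors' deposited table lists Egr3 at log2 -2.08 (adjusted p = 0.0016) and Fos at log2 1.07 (adjusted p = 0.0083).

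Lymphocyte transcripts moved with the same groups: 5 B cell markers summed to 2.15 to 3.34 CPM in HFD knockout and 161 to 353 CPM in HFD wild type, all 5 called lower, and 4 of 4 T cell markers were lower (3.06 to 15.8 CPM in knockout and 65.3 to 160.3 CPM in wild type). Their part in the Egr3 and Fosb values was not tested. Jun was at 117, 119 and 102 CPM in knockout and 105, 118 and 120.1 CPM in wild type, Fosl2 at 209.6, 110.1 and 145 CPM in knockout and 83.3, 92.3 and 138 CPM in wild type, and Egr1 at 40.6, 26.8 and 37 CPM in knockout and 16.5, 43.1 and 28 CPM in wild type, all overlapping. Junb, Jund and Egr2 had log2 values of -0.43, -0.10 and 0.29, and Fosl1 was below 0.4 CPM throughout. Of the pathway lists, a single gene was called, the ERK phosphatase gene Dusp2 (log2 -3.12).

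**Figure D4:**
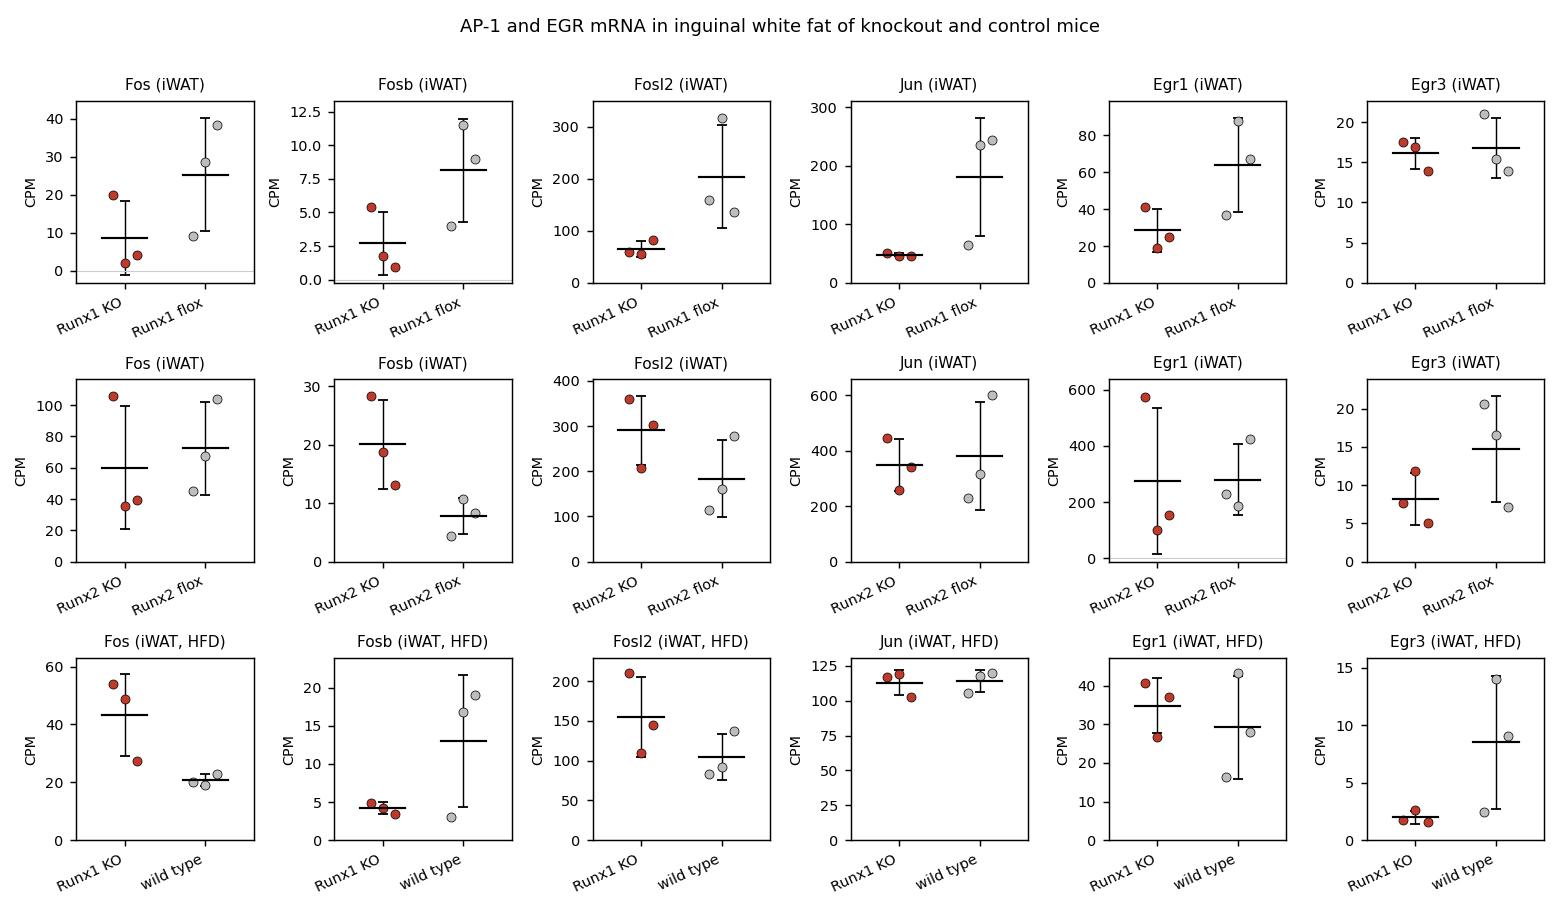
CPM of 6 of the genes in iWAT of Runx1 knockout and Runx1 flox mice (top), Runx2 knockout and Runx2 flox mice (middle) and Runx1 knockout and wild-type mice labelled HFD (bottom). Points are libraries, bars are means and whiskers are 1 SD (n = 3 each). Fosl2 and Jun are lower in all Runx1 knockout libraries of the top row, and the flox libraries spread widely.

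A joint fit of both Runx1 tissue tables tested whether the knockout effect differed between them. The signed knockout effects on Fosl2 and Jun were higher in the HFD tissue, by log2 2.19 (SE 0.48) and 1.89 (SE 0.49) (edgeR adjusted p = 0.021 and 0.048). These were 2 of 9 members, beside 1.1% of 16361 genes called in that direction and 3.3% in the other. The knockout effects behind this were log2 0.57 for Fosl2 and -0.02 for Jun in HFD tissue and -1.63 and -1.92 in the other tissue. Jun held the call in 3 of 17 alternative analyses and lost it without any 1 of 11 libraries. Fosl2 held it in 12 of 17 and lost it without HFD wild-type replicate 2 or Runx1 knockout replicate 1 or 2 of the other tissue. The tables differ in diet label and control genotype, so condition and table cannot be told apart.

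**Figure D5:**
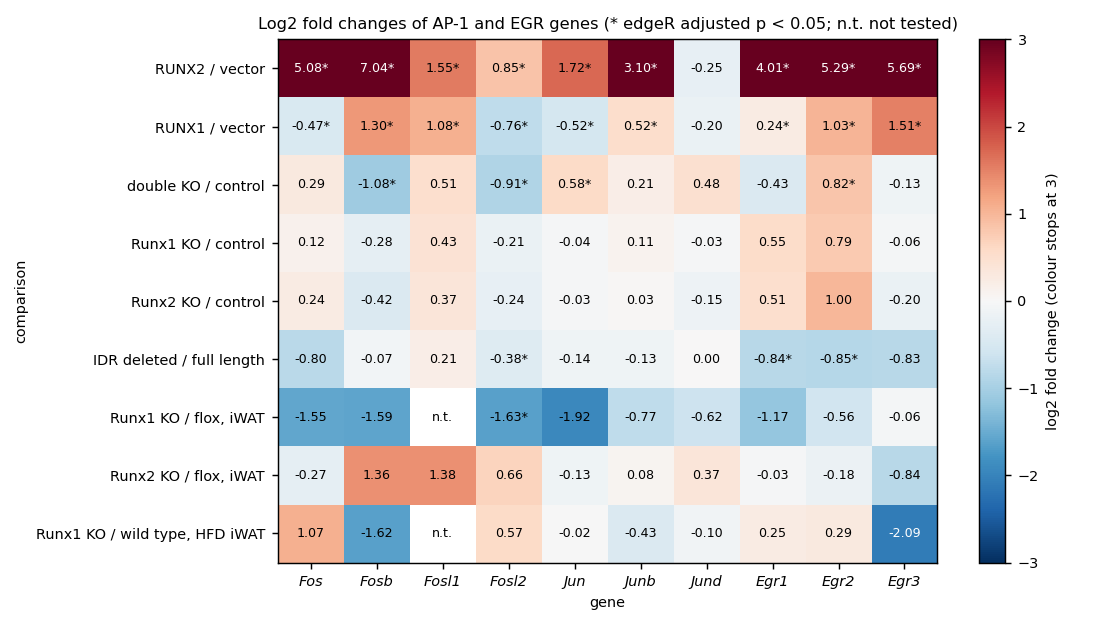
Log2 fold changes of the 10 genes (columns) in 9 comparisons (rows), red where the group named first is higher. Asterisks mark an edgeR adjusted p under 0.05, and n.t. marks a gene not tested. The RUNX2 row holds the largest values, and Jund has no asterisk in any row.

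Across the 43 libraries, each expressed relative to the mean of its table's control group on the log2 scale, the 5 genes outside the family whose pattern was most like that of Fos were Zfp36 (Pearson r = 0.931), Thbd (0.917), Klf6 (0.910), Btg2 (0.908) and Adamts9 (0.901), among 11710 genes tested in all tables. For Jun they included Csrnp1 (0.881), Atf3 (0.877), Adamts1 (0.861) and Btg2 (0.860). Within the family Fos and Egr1 had r = 0.928, Fosb and Junb 0.899, and Jund had 0.044 with Fos and 0.0095 with Egr1. The libraries share tables and controls, and the RUNX2 libraries lie far from the rest for most of these genes, so the values describe these samples only.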

How the data were processed

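RNA-seq counts per gene for 43 mouse libraries in 15 groups were taken from 6 tables as the authors deposited them. Per the submitters' processing notes, fastp, STAR, featureCounts and the mm39 build were used; versions and strandedness are not given in the sources used here. The authors also deposited 2 lists of changed genes with log2 fold changes and adjusted p-values, whose 10 columns of per-sample values were not used. In each library 71.1 to 81.9% of low counts were even numbers, where unrelated fragments would give odd and even values about alike. Counts of a gene may therefore not be independent of each other, and the counting error at 28092201 to 52171378 counts per library was not measured.

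Each table was fitted on its own with edgeR 4.0.16 in R 4.3.3 (filterByExpr with a minimum count of 10, TMM, robust quasi-likelihood, group means, all groups of a table sharing 1 spread, two-sided, Benjamini-Hochberg over all tested genes, threshold 0.05). The script was tested on simulated data, in which counts were drawn independently and 200 genes were changed per comparison. In the data more genes were called in several comparisons, and low counts were mostly even. The rates that follow therefore describe the simulation only. Of simulated 2-fold changes it recovered 13% for Runx2 knockout iWAT, 31% for HFD iWAT and 38% for Runx1 knockout iWAT. It recovered 59% for RUNX2 against vector and 83% for the IDR deletion. False calls were 10.1% of calls for Runx1 knockout iWAT and 9.94% for RUNX2 against vector. Alternatives were DESeq2 1.42.0, its size factors, no filter, a replicate block, 2 groups alone, leaving out each library and leaving out the libraries with cardiac transcripts. Leaving out the muscle-bearing libraries of the Runx1 tissue table was chosen after seeing the data. The 10 members and the 12 pathway and 9 marker lists were chosen with earlier results of these data known. Named pathway genes are among up to 3 called genes of lowest adjusted p per list and direction. Genes of like pattern are the 5 highest Pearson r of log2(CPM + 0.5); some genes these rules select are not reported here. Promoters came from RefSeq and exon lengths from GENCODE M21 (GRCm38), a build other than the counts' mm39.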

Additional observations from a re-analysis of the deposited data

Results flagged for a closer look

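Several values stood out because the effect of a perturbation differed between settings by a test of the difference itself. The log2 effect of Runx1 knockout on Fosl2 was 0.57 in iWAT labelled HFD and -1.63 in the other iWAT. The difference was 2.19 (SE 0.48, edgeR adjusted p = 0.021). For Jun the effects were -0.02 and -1.92, and the same difference was 1.89 (SE 0.49, edgeR adjusted p = 0.048). Fosl2 had mean levels of 155 ± 50.5 CPM in HFD knockout and 104 ± 29.1 CPM in HFD wild type, and 65.8 ± 15.3 CPM in knockout and 204 ± 98.9 CPM in Runx1 flox tissue of the other table (SD, n = 3 each). Jun had 113 ± 9.03 CPM in HFD knockout and 114 ± 7.93 CPM in HFD wild type, and 47.9 ± 2.55 CPM in knockout and 181 ± 101 CPM in Runx1 flox tissue. Without the 3 libraries of the Runx1 flox table that carried skeletal muscle transcripts neither gene was called.

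The level of Egr1 in the double knockout cultures lay -1.50 (log2, SE 0.20, edgeR adjusted p = 0.018) relative to the sum of both single knockout effects. Its means were 29.4 ± 2.5 CPM in double knockout, 58.3 ± 4.31 CPM in Runx1 knockout, 56.7 ± 5.64 CPM in Runx2 knockout and 39.7 ± 6.23 CPM in control (SD, n = 3 each). The sign was the same in 16 of 16 alternative analyses, and the call held in 7 of them.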

How the results depend on the processing

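No value of a member reversed its sign as a called value under any alternative tried. Of the counts of called members, 328 stayed within 1.5 times the value given above and 76 moved; all counts for RUNX2 against vector and for RUNX1 against vector stayed. Where a count moved, the cause was not tested. Shares of all genes called under these alternatives are not given in this section, so its counts describe only how far the calls held. Under DESeq2, members called higher were 2 in Runx1 knockout, 2 in Runx2 knockout, 2 in double knockout against Runx2 knockout, 1 in the departure from additivity, 1 in Runx2 knockout iWAT and 1 in HFD Runx1 knockout; members called lower were 6 in Runx1 knockout iWAT, 2 in HFD Runx1 knockout and 1 in the difference between the Runx1 tissue tables. With only the 2 groups fitted, the double knockout had 0 higher and 0 lower against control and against each single knockout, and Runx1 knockout had 1 higher. Without the count filter 1 member was higher in HFD Runx1 knockout and 1 in the difference between tables.

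Numbers were taken as pairing only where the deviations of every same-numbered pair correlated above 0.1, which no comparison met (r from -0.28 to 0.46). In the double knockout all 3 were positive (0.28, 0.27 and 0.087). With the IDR deletion r was 0.028, a single value because 2 libraries per group force both pairs to be equal. A replicate block left 0 lower in Runx1 knockout iWAT, 0 lower in the departure from additivity and 0 higher in the difference between tables, and moved no other count of members by over 1.5 times.

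Leaving out 1 library gave 1 to 3 members higher and 1 to 3 lower in double knockout against control, 0 to 2 higher and 1 to 3 lower against Runx1 knockout, 0 to 2 higher and 1 to 2 lower against Runx2 knockout, and 0 to 1 higher and 0 to 1 lower in the departure from additivity. It gave 0 to 2 higher in Runx1 knockout and in Runx2 knockout, 0 to 3 lower in Runx1 knockout iWAT, 0 to 3 higher and 0 to 1 lower in Runx2 knockout iWAT, 0 to 1 higher and 0 to 2 lower in HFD Runx1 knockout, 1 to 3 lower in IDR-deleted cells, and 0 to 2 higher and 0 to 1 lower in the difference between tables. A lone library left in a group is assumed to vary like the other groups. Genes under 1 CPM, such as Fosl1 in tissue and Egr3 in the knockout cultures, are limited by depth.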
